A study of Mus musculus with 12 samples.

Results

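The genes described here encode the enzymes, carriers and regulators of fatty acid oxidation and ketone body formation in the liver. They are 40 genes named by symbol. A gene was taken as measured where a probe set of the array named it and no other gene, and the brightest such probe set over the 12 arrays stood for it. By this rule 37 of the 40 genes were measured, out of 22180 genes in all, and all 37 passed the filter on dim genes that left 14031 genes for testing. Cyp4a10 and Cyp4a32 lay only on probe sets naming several genes and are described apart. Acsl1 is not analysed here.

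Liver RNA came from male mice of C57BL/6 background, labelled as 8 to 10 weeks old. The feeding lasted 16 weeks, so the labelled age cannot be that at its end. The mice are grouped by genotype and diet. They were either wild-type or Pparβ/δ-/-, lacking the nuclear receptor PPARβ/δ encoded by Ppard, and the labels do not describe the null allele further. Each genotype was kept for 16 weeks on liquid food, either without ethanol (control) or with ethanol at 4% (v/v), after all mice had taken the control liquid diet during acclimation. The 2 genotypes and 2 diets give 4 groups of 3 arrays, named by genotype (wild-type or null) and diet (control or ethanol). The labels give 10 mice per group but do not say that each array is a separate mouse, so the errors and p-values measure only the spread between these samples.

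Hepatocytes oxidise long-chain fatty acids mainly in mitochondria, which they enter as carnitine esters, and very long-chain fatty acids first in peroxisomes. Acetyl-CoA from this oxidation is turned into ketone bodies when supply exceeds the need of the citric acid cycle, and a smaller share of fatty acids is oxidised at the omega end in the endoplasmic reticulum. Many of these genes are known targets of PPARα, a nuclear receptor of hepatocytes that binds DNA with RXR at a direct repeat of a short half-site, and PPARβ/δ can bind the same kind of element.

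The promoters are shown because many of the members are known PPARα targets. The RefSeq promoter table (GRCm38.p6) held 31 of the 40 members. The motif AGGTCANAGGTCA was searched on both strands in the 250 bases before each start, with up to 2 mismatches over its 12 fixed letters. It was found in 4 of 36 member promoters (11.1%) and in 1063 of all 32851 promoters (3.24%). Without mismatches it was found in 0 member promoters and in 11 of all promoters. The windows with a match are given on the strand of the gene, with the matching letters in capitals. They are chr6:71199772-71199864 (plus strand) for Fabp1, chr12:84038326-84038378 (plus) for Acot4, chr10:81092748-81092840 (minus) for Creb3l3 and chr9:55512268-55512360 (minus) for Etfa.
Fabp1: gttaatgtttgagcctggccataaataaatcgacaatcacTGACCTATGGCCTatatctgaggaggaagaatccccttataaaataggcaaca
Acot4: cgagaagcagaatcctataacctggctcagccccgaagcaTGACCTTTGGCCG
Creb3l3: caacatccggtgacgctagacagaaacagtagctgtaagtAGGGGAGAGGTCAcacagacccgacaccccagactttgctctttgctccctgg
Etfa: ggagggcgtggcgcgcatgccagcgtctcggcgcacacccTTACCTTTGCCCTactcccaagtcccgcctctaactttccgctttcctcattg
The Fabp1 match differs from the motif at 1 fixed letter and the other 3 matches at 2. A match is a description of the letters and not of a bound site.

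Values are log2 intensities, so a difference of 1 is a 2-fold difference, and differences are given ± standard error from limma with 3 arrays per group. A gene is called where its limma p, adjusted by Benjamini-Hochberg over the 14031 genes, is under 0.05. Array medians lay between 5.55 and 5.62, and precision is limited by having 3 arrays in a group. Of 6 general hepatocyte markers, 6 were measured and 0 were called in any of the 7 contrasts. Their group means were 12.96 to 14.03, and whether such bright probe sets follow changes in proportion was not tested. Some markers of liver zones were called. Of 6 periportal markers 4 were measured, and in null livers Hal was lower on both diets (-0.45 on the control diet) and Ass1 higher on the control diet (0.55). Cyp2f2 (0.01) and Pck1 (-0.04) were not called there. The Ass1 probe set had group means of 6.57 to 7.12, far below those of the other periportal markers. Of 6 pericentral markers only Oat was called, lower in null livers averaged over the diets (-0.49). The other pericentral estimates in that contrast ran from -0.17 (Lgr5) to 0.24 (Cyp1a2). Of 6 sinusoidal endothelial markers, Pecam1 (-0.37) and Tek (-0.47) were called lower in null livers averaged over the diets. Of the adipocyte markers, Adipoq and Lep were below the filter and 3 were tested (Plin1, Cidec and Fabp4). Fabp4 was called lower in null livers averaged over the diets (-0.43), while Plin1 (0.09) and Cidec (0.19) had positive estimates and were not called. Cidec, which hepatocytes with fat droplets also express, had an uncalled ethanol difference of 1.13 in wild-type livers. Of 10 Kupffer cell and macrophage markers, 6 were called lower in null than in wild-type liver on the control diet, 1 on the ethanol diet and 9 averaged over the diets. All 10 markers had negative estimates on both diets. Their summed log2 level was 12.33 to 12.87 in wild-type control, 12.65 to 13.00 in wild-type ethanol, 11.64 to 12.07 in null control and 11.99 to 12.55 in null ethanol livers. In such bulk samples, fewer cells of a type and less RNA per cell cannot be told apart. The median log2 intensity of 66 snoRNA genes was 7.24 to 7.78 on the 3 wild-type control arrays. It was higher, 8.31 to 9.05, on the other 9. The snoRNA level thus moved with ethanol in wild-type livers and with genotype on the control diet. The interaction and both averages also use the wild-type control group. The part of these values in the results below was not tested. Ppard itself gave log2 intensities between 7.64 and 8.06 on all 12 arrays, with a null minus wild-type difference of 0.08 ± 0.08 averaged over the diets, so it gives no check of the genotype labels. The sources used here do not say where its probes lie relative to the deleted part.

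One array stood apart in these genes. The third null ethanol array had the lowest value of its group for 36 of the 37 members (97.3%), against 46.1% of all tested genes. Its median difference from the other null ethanol arrays was -0.32 over the members and -0.04 over all genes. The difference was largest for Acot1 (-1.61), followed by Vnn1 (-0.88), Ehhadh (-0.76) and Acot2 (-0.76). The only member that was not lowest there was Abcd2, which was 0.33 above the other arrays of the group. This array also had the lowest snoRNA median of the 6 null arrays (8.31). Most member results that use the null ethanol group are therefore given with and without it, singly or as a group. As this array was picked for its low member values, leaving it out raises the null ethanol mean of every member but Abcd2 by construction. The first null control array was the lowest of its group for 23 of 37 members (62.2%), against 36.2% of all genes. The third wild-type control and the first wild-type ethanol array were each the lowest for 20 of 37 members (54.1%), against 31.3% and 40% of all genes. The median standard deviation of the members within groups was 0.12 in wild-type control, 0.06 in wild-type ethanol, 0.11 in null control and 0.20 in null ethanol livers.

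**Figure D1:**
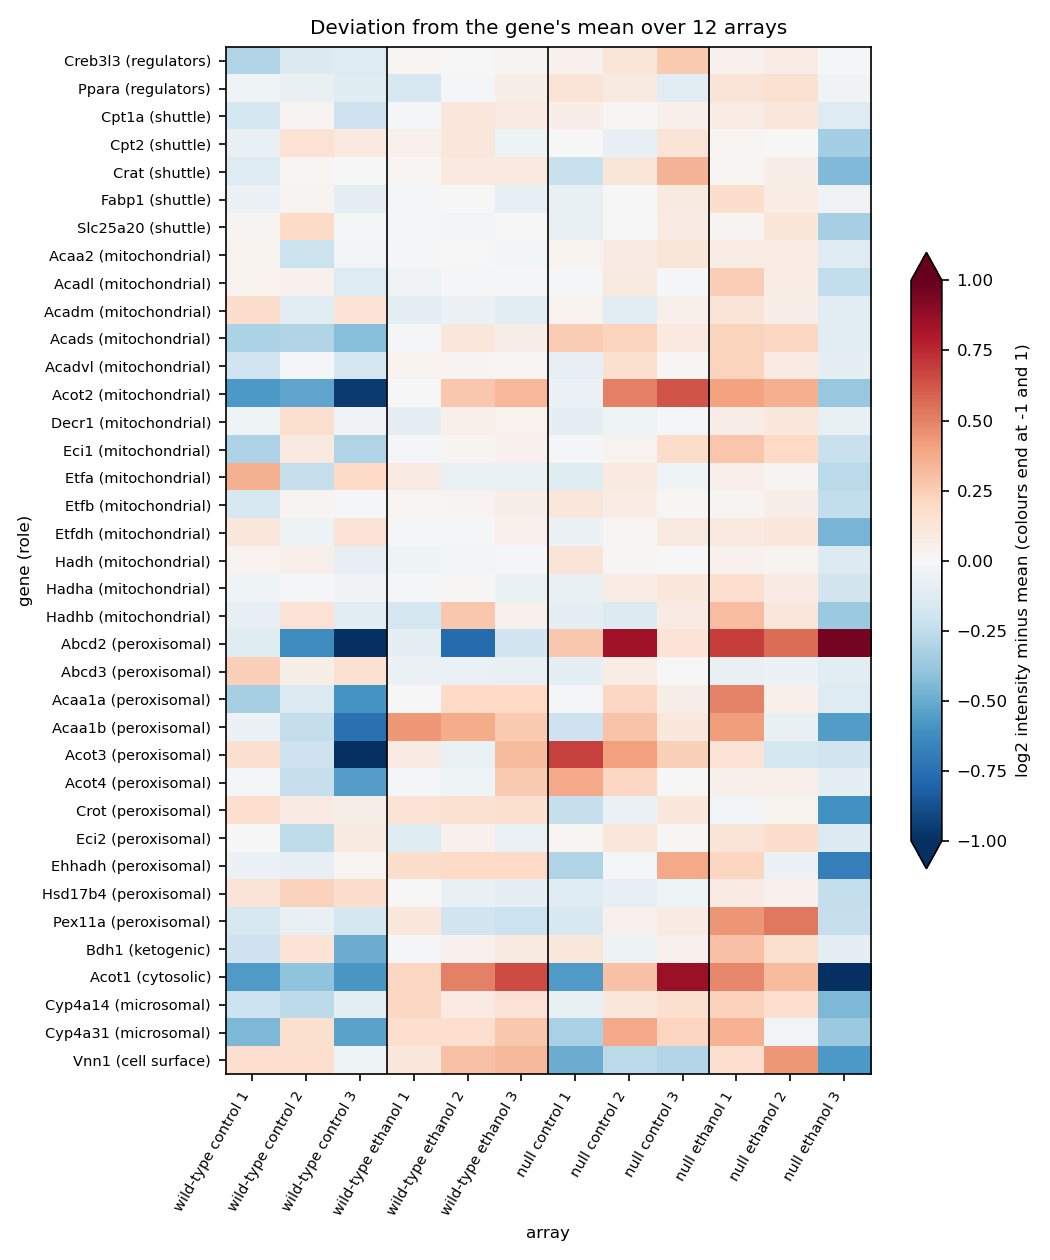
Each cell shows the log2 intensity of a member (row, with its role) on an array (column) minus the mean of that gene over the 12 arrays, with colours ending at -1 and 1. The column of the third null ethanol array is blue in almost every row except Abcd2, and Acot2 and Acads are blue on all 3 wild-type control arrays.

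On the control diet, null livers had higher levels of 4 members than wild-type livers, and none of the other 33 passed the test. The 4 were the thioesterase Acot2, the short-chain acyl-CoA dehydrogenase Acads, the peroxisomal transporter Abcd2 and the transcription factor Creb3l3. Calls among all tested genes in this comparison were 3.21% higher and 1.89% lower, and among the members 4 of 37 were higher and 0 lower. The estimate was positive for 26 members and negative for 11, against 51.9% positive over all genes, and the median was 0.12 against 0.01. The groups did not overlap for 8 members that were higher and 2 that were lower, against 14.6% and 10% of all genes.

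Creb3l3, a liver transcription factor of the endoplasmic reticulum that acts with PPARα in fasting, was the regulator that differed. Its log2 intensities were 11.22, 11.38 and 11.39 in wild-type control and 11.56, 11.64 and 11.78 in null control livers. All 3 null values lay above the wild-type values. The difference was 0.33 ± 0.09 (1.26-fold, limma adjusted p = 0.0439), and the call was kept in 3 of 12 fits that each left out 1 array, with adjusted p from 0.0337 to 0.14. It was lost without any 1 of the wild-type ethanol arrays, the first or the third wild-type control, the second or the third null control, or the first or second null ethanol array. Ppara, which encodes PPARα, had values of 10.84, 10.81 and 10.76 against 11.01, 10.97 and 10.77. The groups overlapped, and the difference was 0.11 ± 0.10 (limma adjusted p = 0.526).

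None of the 5 genes of uptake and the carnitine shuttle was called, and their median difference was 0.04. Cpt1a, the carnitine palmitoyltransferase that controls entry into mitochondria, had values of 12.39, 12.59 and 12.35 in wild-type control and 12.63, 12.58 and 12.61 in null control livers. The ranges overlapped, with a difference of 0.16 ± 0.09 (limma adjusted p = 0.34). Cpt2, the carnitine acetyltransferase Crat, the carnitine-acylcarnitine carrier Slc25a20 and the fatty acid binding protein Fabp1 differed by between -0.07 and 0.12.

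Among the 14 mitochondrial genes, Acot2 and Acads were called and the other 12 were not. Acads oxidises short-chain acyl-CoA. Its values were 11.20, 11.21 and 11.09 in wild-type control and 11.77, 11.74 and 11.61 in null control livers. The gap between the groups was larger than the range within either. The difference was 0.54 ± 0.10 (1.45-fold, limma adjusted p = 0.0109), and the call was kept in 11 of 12 fits that left out 1 array. It was lost without the second null control array (limma adjusted p = 0.0566, from a range of 0.00378 to 0.0566 over these fits).

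Acot2 is a mitochondrial thioesterase that releases free fatty acids from acyl-CoA and a known PPARα target. Its values were 9.36, 9.41 and 8.98 in wild-type control and 9.88, 10.44 and 10.57 in null control livers. The groups did not overlap, and the third wild-type and first null array were the lowest of their groups. The difference was 1.04 ± 0.22 (2.06-fold, limma adjusted p = 0.0184). It was lost without the third wild-type control, the second null control or the third null control array, with adjusted p of 0.0715, 0.085 and 0.0576 in a range of 0.00637 to 0.085. The main dehydrogenases of longer chains were not called: Acadvl differed by 0.16 ± 0.10, Acadl by 0.03 ± 0.11 and Acadm by -0.07 ± 0.10. The trifunctional protein subunit Hadha differed by 0.07 ± 0.10, and the electron transfer genes Etfa, Etfb and Etfdh lay between -0.13 and 0.12. Hadhb, the partner subunit, had log2 intensities of 5.36 to 6.03 over the 12 arrays, close to the filter at 5.61 to 5.71, so its probe set measured little.

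Of the 11 peroxisomal genes, 1 was called. Abcd2 carries very long-chain acyl-CoA into peroxisomes. Its values were 9.90, 9.39 and 8.36 in wild-type control and 10.29, 10.85 and 10.16 in null control livers. The groups did not overlap, and the wild-type values spread over more than 1 log2 unit. The difference was 1.22 ± 0.32 (2.32-fold, limma adjusted p = 0.0453). Without the third wild-type control array it was 0.79, and the call was kept only in the fits without the first wild-type control or the third null ethanol array (adjusted p from 0.0209 to 0.171 over the 12 fits). The thioesterases Acot3 and Acot4 were not called. Acot3 had 8.97, 8.60 and 7.43 against 9.49, 9.22 and 9.05, a difference of 0.92 ± 0.29 (limma adjusted p = 0.0814). Acot4 had 8.75, 8.52 and 8.20 against 9.14, 8.97 and 8.75, a difference of 0.46 ± 0.14 (limma adjusted p = 0.0761). For both genes the third wild-type control array was the lowest. Acot2, Acot1, Acot4 and Acot3 lie next to one another on chromosome 12 and are close paralogs, and probes shared between them were not checked. The thiolase Acaa1a had 8.80, 8.99 and 8.54 against 9.12, 9.34 and 9.19 (0.44 ± 0.15, limma adjusted p = 0.116). Hsd17b4, the D-bifunctional protein, had 12.03, 12.13 and 12.08 against 11.77, 11.82 and 11.86, lower in every null array but not called (-0.26 ± 0.09, limma adjusted p = 0.122). Ehhadh, the L-bifunctional protein and a widely used PPARα target, had 12.23, 12.21 and 12.31 against 11.99, 12.27 and 12.67. Its null values lay on both sides of the wild-type values, and the difference was 0.06 ± 0.20 (limma adjusted p = 0.893).

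Bdh1, which interconverts acetoacetate and beta-hydroxybutyrate and is the ketogenic gene among the members, had 10.76, 11.10 and 10.47 in wild-type control and 11.08, 10.91 and 11.01 in null control livers. The groups overlapped (0.22 ± 0.14, limma adjusted p = 0.386). Acot1, the cytosolic thioesterase, had 8.34, 8.50 and 8.32 against 8.33, 9.19 and 9.77. Its null values ran from the wild-type level to more than 1 log2 unit above it (0.71 ± 0.39, limma adjusted p = 0.311). Cyp4a14, a microsomal omega-hydroxylase, had 13.18, 13.13 and 13.29 against 13.32, 13.50 and 13.56, without overlap but not called (0.26 ± 0.15, limma adjusted p = 0.335). Vnn1, the pantetheinase that releases vitamin B5 from pantetheine, had 11.49, 11.49 and 11.29 against 10.83, 11.06 and 11.04, lower in every null array but not called (-0.45 ± 0.19, limma adjusted p = 0.198). In the fit without the third null ethanol array, Vnn1 was called with the same difference (limma adjusted p = 0.0352), so 5 members were then called. The number of members called was 0 without the second null control array, and 1 without the third wild-type control or the third null control array.

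**Figure D2:**
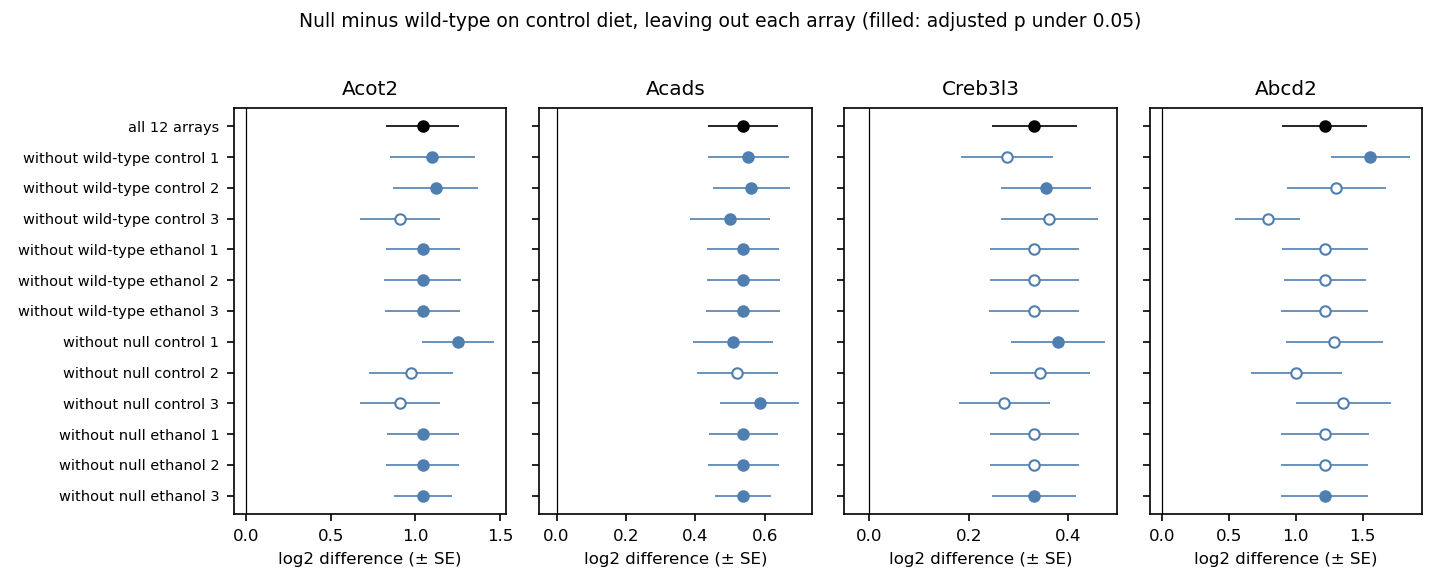
Null minus wild-type log2 difference on the control diet (x axis, ± standard error) for the 4 called members, with all 12 arrays and leaving out each array in turn (rows). Filled points have a limma adjusted p under 0.05. Every estimate stays above 0, Acads keeps its call in 11 of 12 fits, and Creb3l3 and Abcd2 keep it in 3 and 2.

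In wild-type mice, ethanol changed no member by the test. By role, 9 of 11 peroxisomal genes and both microsomal genes had positive estimates, with medians of 0.23 and 0.41, and the 14 mitochondrial genes had a median of 0.03. Without the third wild-type control array these medians were 0.077, 0.36 and 0.010, and no test compared the roles. Over all members 27 were positive and 10 negative, against 48.7% positive over all genes, and the median was 0.09 against -0.01. Adjusted calls were 0 of 37 members, against 0.0927% of all genes (13 genes). At an unadjusted p under 0.05 there were 9 higher and 2 lower members, against 14.5% of all genes in either direction. These 11 fell to 5 without the third wild-type ethanol array, 6 without the second and 7 without the third wild-type control array. The groups did not overlap for 10 members that were higher and 2 that were lower, against 10.8% and 8.61% of all genes. This comparison uses the same 3 wild-type control arrays as the genotype comparison on the control diet.

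The thioesterases Acot1 and Acot2 had the largest estimates of the 37. Acot2 had 9.94, 10.20 and 10.27 in wild-type ethanol livers, all above the wild-type control values of 8.98 to 9.41. The difference was 0.89 ± 0.22 (limma adjusted p = 0.118). It was called in 1 fit that left out an array, that without the second wild-type control (0.96, adjusted p = 0.0482, in a range of 0.0482 to 0.368). Acot1 had 9.11, 9.40 and 9.56 against 8.32 to 8.50, again without overlap (0.97 ± 0.39, limma adjusted p = 0.286). In a fit to the 6 wild-type arrays alone, Acot1 was called (0.97, adjusted p = 0.0429).

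Acads had 11.49, 11.62 and 11.58 in wild-type ethanol livers, above the 11.09 to 11.21 of the controls (0.40 ± 0.10, limma adjusted p = 0.124). The peroxisomal thiolases lay higher in every ethanol array. Acaa1b had 11.79, 11.61 and 11.10 in control and 12.28, 12.22 and 12.11 in ethanol livers (0.70 ± 0.22, limma adjusted p = 0.186). Acaa1a had 9.13, 9.33 and 9.34 in ethanol livers, against 8.54 to 8.99 (0.49 ± 0.15, limma adjusted p = 0.185). In contrast, 2 peroxisomal genes were lower in every ethanol array without being called. Abcd3, the transporter of branched-chain and long-chain dicarboxylic acyl-CoA, had 12.47, 12.28 and 12.38 in control and 12.17, 12.16 and 12.15 in ethanol livers (-0.22 ± 0.08, limma adjusted p = 0.257). Hsd17b4 had 11.90, 11.83 and 11.81 in ethanol livers, below the 12.03 to 12.13 of the controls (-0.23 ± 0.09, limma adjusted p = 0.281).

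Creb3l3 had 11.53, 11.52 and 11.54 in wild-type ethanol livers, above all 3 controls (0.21 ± 0.09, limma adjusted p = 0.297). Cyp4a14 had 13.60, 13.47 and 13.54, above the 13.13 to 13.29 of the controls (0.34 ± 0.15, limma adjusted p = 0.328). Ehhadh had 12.47, 12.49 and 12.49, just above the controls (0.23 ± 0.20, limma adjusted p = 0.625). Both wild-type groups of Ehhadh were tight, while the model pools the spread of all 4 groups and the null groups of this gene spread wider. Cpt1a had 12.54, 12.68 and 12.65 and overlapped the controls (0.18 ± 0.09, limma adjusted p = 0.408). Bdh1 had 10.95, 11.01 and 11.06, within the range of the controls (0.23 ± 0.14, limma adjusted p = 0.479). Ppara had 10.73, 10.87 and 10.94, with a difference of 0.04 ± 0.10 and a 95% interval of -0.17 to 0.25 (limma adjusted p = 0.879).

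**Figure D3:**
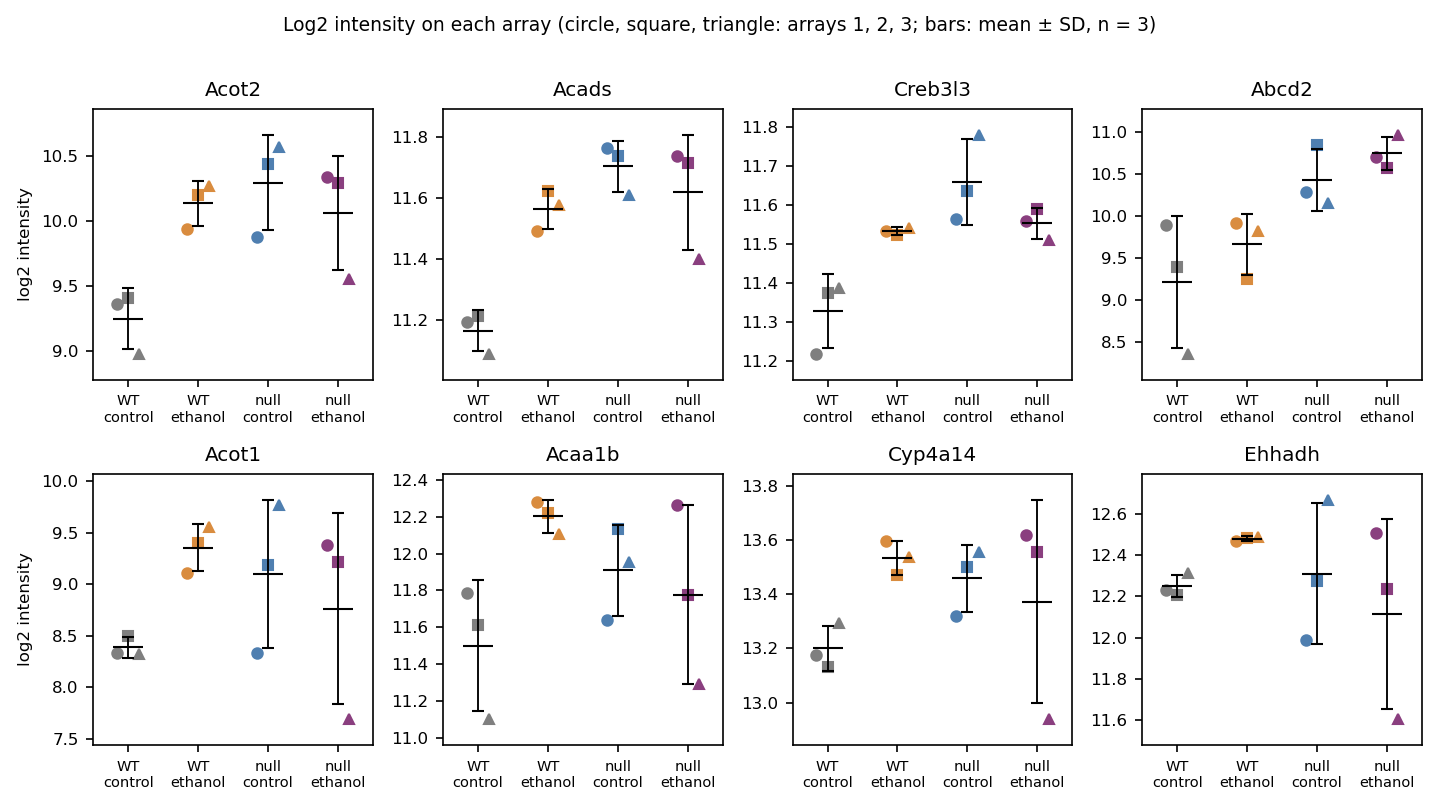
Log2 intensity (y axis, each panel with its own scale) of 8 members on each array, by group. Circles, squares and triangles are arrays 1, 2 and 3, and bars give the mean ± SD of 3 arrays. Acot2 and Acads are lowest in wild-type control, Abcd2 is higher in both null groups, and the triangle of the null ethanol group is the lowest point of that group except for Abcd2.

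In null mice, ethanol changed no member by the test, and the direction of the estimates depended on which arrays were kept. With all arrays, 15 members were positive and 22 negative, against 38.1% positive over all genes, and the median was -0.07 against -0.05. Adjusted calls were 0 of 37, against 0.00713% of all genes, and 0 members passed an unadjusted p of 0.05, against 12.2% of all genes. The groups did not overlap for 0 members that were higher and 1 that was lower, against 5.59% and 13% of all genes. Without the third null ethanol array, 28 members were positive and 9 negative, with a median of 0.09. The mitochondrial genes then had 11 of 14 positive and the peroxisomal genes 8 of 11, against 6 of 14 and 5 of 11 with all arrays. Leaving out the first null ethanol array instead, 6 members were positive and 31 negative, with a median of -0.10.

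Vnn1 had 10.83, 11.06 and 11.04 in null control and 11.50, 11.76 and 10.75 in null ethanol livers. Of the ethanol arrays, 2 lay above every control and the third below every control. The difference was 0.36 ± 0.19 (limma adjusted p = 0.463), and 0.65 ± 0.12 without the third array (limma adjusted p = 0.187). Pex11a, which promotes the division of peroxisomes, had 10.80, 11.00 and 11.03 against 11.39, 11.48 and 10.73. It showed the same split (0.25 ± 0.17, limma adjusted p = 0.541), with 0.49 ± 0.12 without the third array (limma adjusted p = 0.241). Over all fits that left out 1 array the adjusted p of Vnn1 ran from 0.187 to 0.778 and that of Pex11a from 0.241 to 0.836.

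Acot3 was the member whose groups did not overlap, with 9.49, 9.22 and 9.05 in control and 8.95, 8.63 and 8.61 in ethanol livers (-0.52 ± 0.29, limma adjusted p = 0.473). Its difference was -0.46 without the third ethanol array. Acot4 had 9.14, 8.97 and 8.75 against 8.80, 8.81 and 8.66 (-0.19 ± 0.14, limma adjusted p = 0.586), with -0.15 without the third ethanol array. Acot2 had 9.88, 10.44 and 10.57 against 10.34, 10.29 and 9.56, a difference of -0.23 ± 0.22 that was 0.02 without the third ethanol array. Acot1 had 8.33, 9.19 and 9.77 against 9.38, 9.21 and 7.69, so both groups spread over more than 1 log2 unit. Its difference was -0.33 ± 0.39 with all arrays and 0.20 ± 0.30 without the third ethanol array.

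Ehhadh had 11.99, 12.27 and 12.67 in null control and 12.51, 12.23 and 11.61 in null ethanol livers, with a difference of -0.19 ± 0.20 (limma adjusted p = 0.703). Its difference was 0.06 ± 0.16 without the third ethanol array. Cyp4a14 had 13.32, 13.50 and 13.56 against 13.62, 13.56 and 12.94 (-0.09 ± 0.15), and 0.13 without that array. Both genes thus had overlapping groups. Crat, which had 10.60, 10.94 and 11.17 against 10.84, 10.89 and 10.38, and Cpt2, which had 11.96, 11.86 and 12.08 against 11.97, 11.94 and 11.61, differed by -0.20 ± 0.15 and -0.13 ± 0.11. Etfb, a subunit of the electron transfer flavoprotein, had 12.21, 12.18 and 12.11 against 12.13, 12.16 and 11.86 (-0.12 ± 0.10). Creb3l3 had 11.56, 11.64 and 11.78 against 11.56, 11.59 and 11.51 (-0.11 ± 0.09). For Bdh1 the ethanol values were 11.26, 11.13 and 10.87 (0.08 ± 0.14), for Cpt1a 12.63, 12.67 and 12.43 (-0.02 ± 0.09), and for Ppara 11.01, 11.04 and 10.84 (0.05 ± 0.10). None of these was called. Without the third ethanol array, the differences of these 7 genes lay between -0.09 (Creb3l3) and 0.19 (Bdh1).

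**Figure D4:**
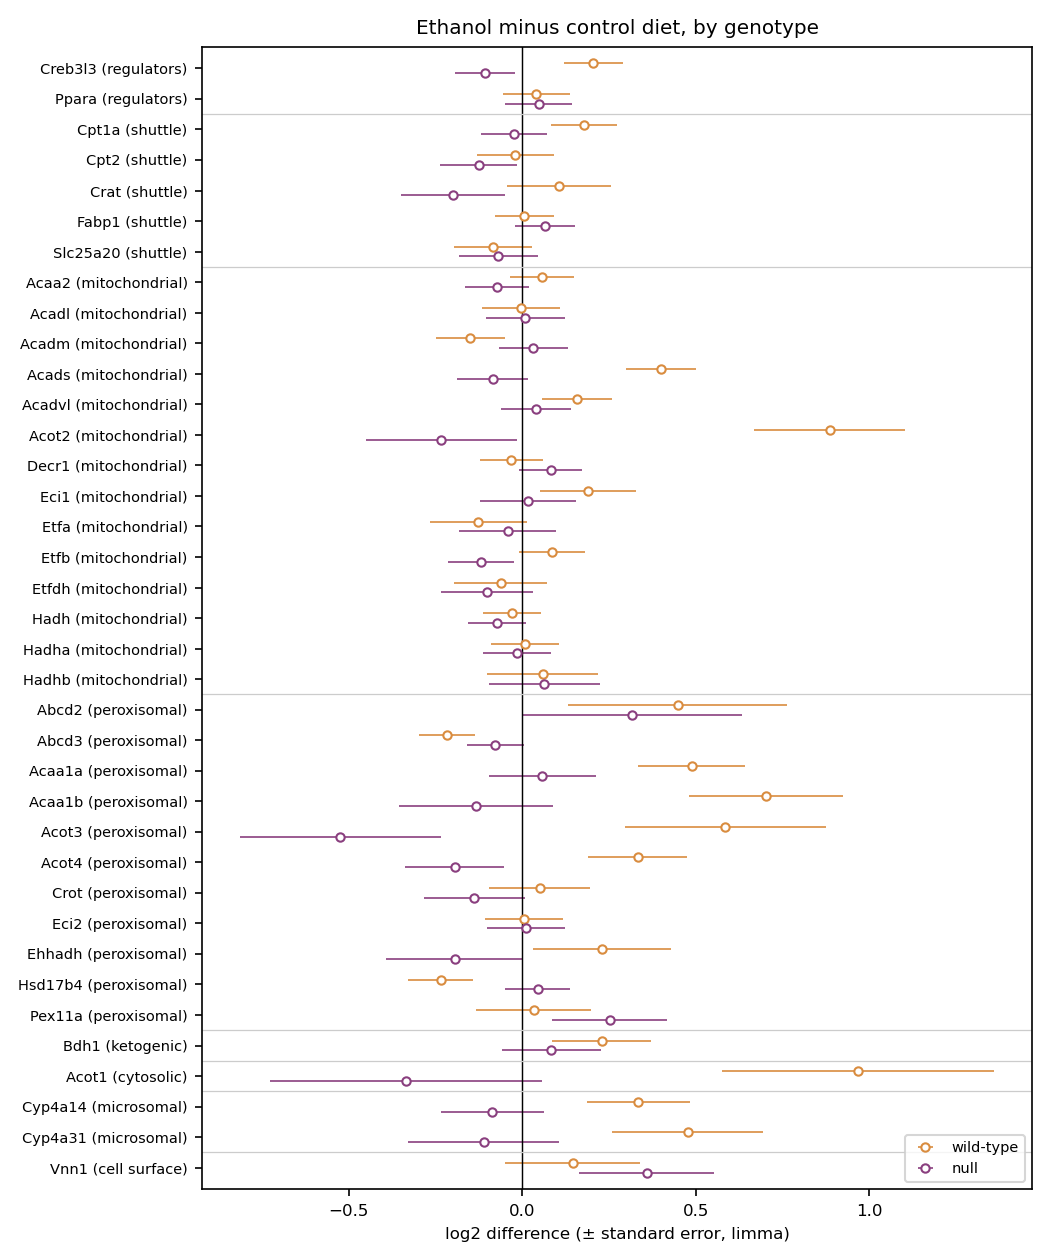
Ethanol minus control log2 difference (x axis, ± standard error from limma) of the 37 members by role, in wild-type (orange) and null (purple) livers. No member was called in either genotype. Acot1, Acot2 and Acaa1b have the highest wild-type estimates, and the null estimates lie between -0.52 and 0.36.

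On the ethanol diet, no member differed between null and wild-type livers by the test. There were 18 positive and 19 negative estimates, against 45.5% positive over all genes, and the median was -0.01 against -0.02. Adjusted calls were 0 of 37, against 0.456% higher and 1.33% lower among all genes. The groups did not overlap for 1 member that was higher (Abcd2) and 1 that was lower (Crot), against 9.74% and 14.4% of all genes. Without the third null ethanol array, 27 members were positive and 10 negative with a median of 0.09. All 14 mitochondrial genes, the dim Hadhb included, were then positive and 1 member, Pex11a, was called. That array was picked for its low member values, so these counts and this call are no separate support for higher levels in null livers. Without the first null ethanol array, 8 were positive and 29 negative.

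Abcd2 had 9.92, 9.25 and 9.83 in wild-type ethanol and 10.71, 10.57 and 10.97 in null ethanol livers. The groups were well apart (1.09 ± 0.32, limma adjusted p = 0.111), as on the control diet, and the difference was 0.98 without the third null ethanol array. It was called without the third wild-type control array (adjusted p = 0.0241, in a range of 0.0241 to 0.357), and in a fit to the 6 ethanol arrays alone (adjusted p = 0.0251). Crot, the carnitine octanoyltransferase of peroxisomes, had 13.06, 13.07 and 13.08 against 12.89, 12.96 and 12.32 (-0.35 ± 0.14, limma adjusted p = 0.255). The value on the third null ethanol array was the lowest of the 12. Pex11a had 11.06, 10.76 and 10.74 against 11.39, 11.48 and 10.73 (0.35 ± 0.17, limma adjusted p = 0.329). The difference of Pex11a without the third null ethanol array was 0.58 ± 0.12 (limma adjusted p = 0.0266, in a range of 0.0266 to 0.628).

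Acot2 and Acads, higher in null livers on the control diet, had overlapping groups on the ethanol diet. Acot2 had 9.94, 10.20 and 10.27 against 10.34, 10.29 and 9.56 (-0.08 ± 0.22), or 0.18 ± 0.19 without the third null ethanol array. Acads had 11.49, 11.62 and 11.58 against 11.74, 11.72 and 11.40 (0.05 ± 0.10), or 0.16 ± 0.09 without the third null ethanol array. Creb3l3 differed by 0.02 ± 0.09, or 0.04 without the third null ethanol array. Acaa1b had 12.28, 12.22 and 12.11 against 12.27, 11.78 and 11.29 (-0.43 ± 0.22, limma adjusted p = 0.371). Ehhadh differed by -0.37 ± 0.20 (limma adjusted p = 0.391) and Acot1 by -0.59 ± 0.39 (limma adjusted p = 0.497), and without the third null ethanol array by -0.11 and -0.06. Crot and Acaa1b were -0.15 and -0.18 without that array. Cpt2 differed by -0.14 ± 0.11, Crat by -0.19 ± 0.15, Cyp4a14 by -0.16 ± 0.15, Cpt1a by -0.04 ± 0.09, Bdh1 by 0.08 ± 0.14 and Ppara by 0.12 ± 0.10. These 6 differences in the fit without the third null ethanol array were -0.03 for Cpt2, -0.03 for Crat, 0.05 for Cyp4a14, 0.03 for Cpt1a, 0.18 for Bdh1 and 0.18 for Ppara, so those of Cyp4a14 and Cpt1a turned sign.

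**Figure D5:**
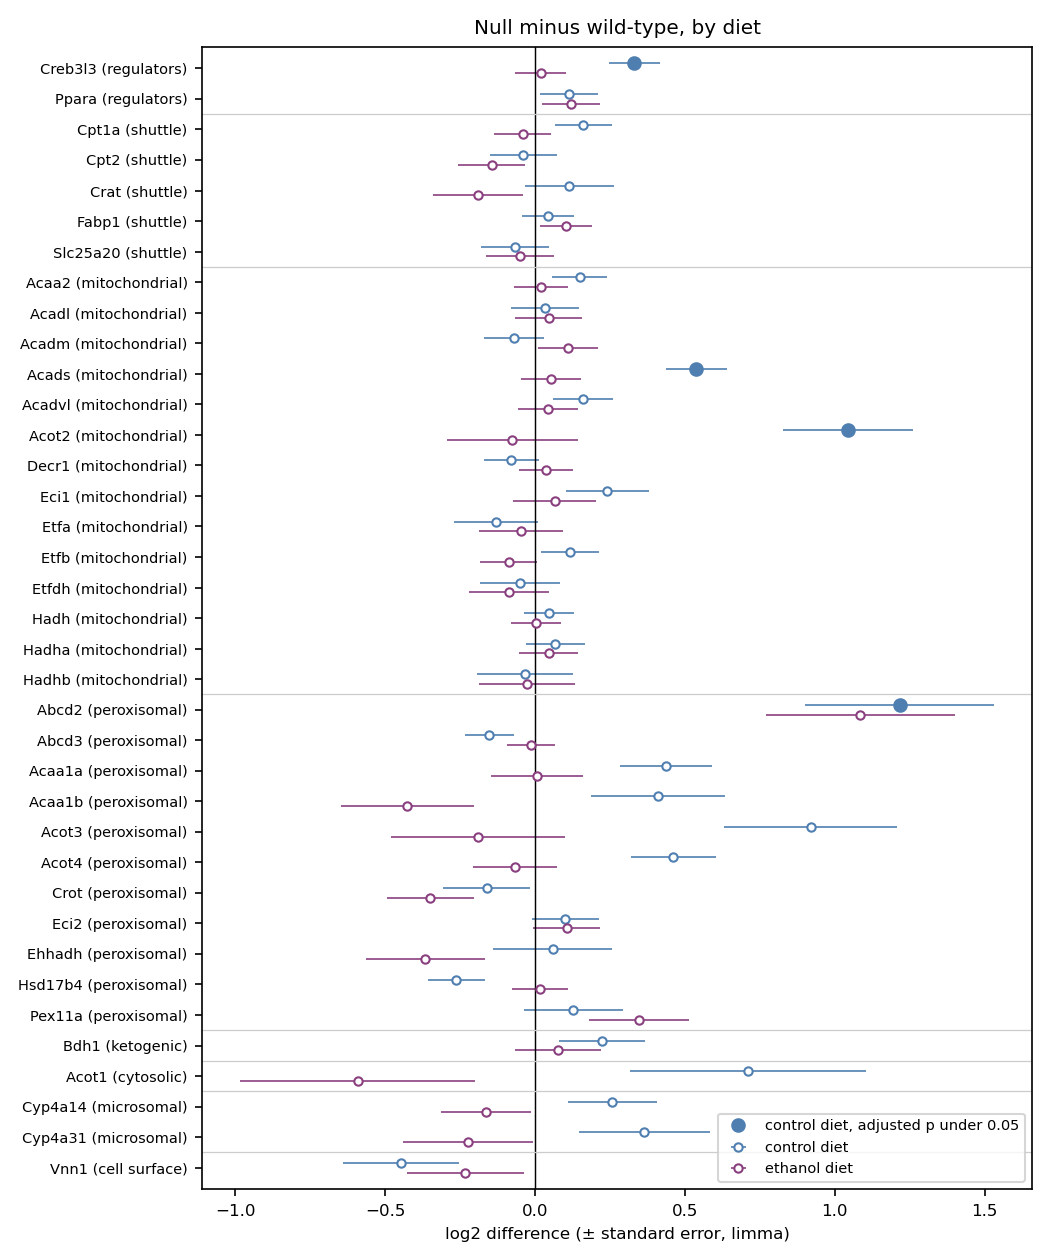
Null minus wild-type log2 difference (x axis, ± standard error from limma) of the 37 members by role, on the control diet (blue) and the ethanol diet (purple). Filled points mark the 4 members with an adjusted p under 0.05, all on the control diet. Abcd2 is the only one of these 4 whose estimate on the ethanol diet (1.09) is also near 1.

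The interaction, the null ethanol effect minus the wild-type ethanol effect, tests the difference between the genotypes directly. No member was called (0 of 37, against 0.0143% of all genes). There were 13 positive and 24 negative estimates, against 44% positive over all genes, and the median was -0.13 against -0.04. Of the members, 7 were lower and 0 higher at an unadjusted p under 0.05. Over all genes the share was 15% in either direction, with 1440 of 14031 lower and 670 higher. All 7 members had their lowest group mean in wild-type control livers. Ethanol in wild-type livers and genotype on the control diet use the same wild-type control arrays, so the interaction is not independent of those comparisons. These 7 had limma estimates of -1.12 ± 0.31 for Acot2 (limma adjusted p = 0.191), -0.48 ± 0.14 for Acads (0.204), -1.11 ± 0.41 for Acot3 (0.256) and -0.83 ± 0.32 for Acaa1b (0.262). They were -0.53 ± 0.20 for Acot4 (0.263), -0.31 ± 0.12 for Creb3l3 (0.269) and -1.30 ± 0.55 for Acot1 (0.292). A second, dimmer probe set of Acot4 gave -0.20 ± 0.17. On the wild-type ethanol arrays Acot3 had 8.89, 8.74 and 9.12 and Acot4 8.75, 8.71 and 9.02, both overlapping their controls. Hsd17b4 ran the other way (0.28 ± 0.13, limma adjusted p = 0.348), with 11.99, 11.94 and 11.66 in null ethanol livers. Without the third null ethanol array the median over the members was -0.02, with 18 positive and 19 negative estimates. Acot2 was then -0.87 ± 0.26, Acads -0.38 ± 0.12, Acot3 -1.05 ± 0.45, Acaa1b -0.59 ± 0.28, Acot4 -0.48 ± 0.22, Creb3l3 -0.29 ± 0.13 and Acot1 -0.77 ± 0.40. At an unadjusted p under 0.05 there were then 5 lower members, without Acaa1b and Acot1, and 3 higher, namely Vnn1 (0.51), Pex11a (0.46) and Hsd17b4 (0.38). The absence of calls does not show that the effects were alike in the 2 genotypes.

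Averaged over the diets, 2 members were called higher in null livers and 0 lower, against 3.01% and 3.98% of all genes. The estimate was positive for 24 members, against 49.9% of all genes. Abcd2 was higher by 1.15 ± 0.22 (2.22-fold, limma adjusted p = 0.00804), and it kept this call in all 12 fits that left out 1 array, with estimates of 0.94 to 1.32. Of the 6 null arrays, all lay above the 6 wild-type arrays, whose highest value was 9.92. Acads was higher by 0.30 ± 0.07 (limma adjusted p = 0.0257) and kept its call in 5 of the 12 fits (adjusted p from 0.00542 to 0.0688). It was lost without the third wild-type control, the first or the third wild-type ethanol, the first or second null control, or the first or second null ethanol array. Acot2 was higher by 0.48 ± 0.15 and was not called (limma adjusted p = 0.0804). Without the third null ethanol array, 4 members were called: Abcd2 (1.10), Acads (0.35), Acot2 (0.61) and Pex11a (0.36). Crot had 13.09, 13.00 and 12.98 in wild-type control and 12.69, 12.86 and 13.03 in null control livers, and its average difference was -0.26 ± 0.10 (limma adjusted p = 0.164), or -0.15 without the third null ethanol array. Vnn1 had 11.44, 11.62 and 11.65 in wild-type ethanol livers and an average difference of -0.34 ± 0.14 (limma adjusted p = 0.168), or -0.19 without that array.

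Ethanol averaged over the genotypes gave 0 calls among the members, against 0.0143% of all genes, and 24 positive estimates, against 43.2%. Without the third null ethanol array 30 were positive, again with 0 calls. The estimates of the thiolase Acaa1a and the transporter Abcd3 were 0.27 ± 0.11 and -0.15 ± 0.06 (limma adjusted p = 0.356 and 0.351). They were 0.34 and -0.14 without the third null ethanol array. In null livers Acaa1a had 9.12, 9.34 and 9.19 on the control and 9.63, 9.18 and 9.01 on the ethanol diet, and Abcd3 had 12.14, 12.30 and 12.23 against 12.15, 12.17 and 12.12. For both genes the diets overlapped in null livers and not in wild-type livers, which does not test a difference between the genotypes.

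The Cyp4a10 and Cyp4a32 transcripts were read only on shared probe sets, fitted apart with 6899 probe sets that name several genes or none. The set naming Cyp4a10 and Cyp4a31 had mean log2 intensities of 13.18 in wild-type control, 13.39 in wild-type ethanol, 13.16 in null control and 12.92 in null ethanol livers. The third null ethanol array was at 12.23, and the other 11 arrays at 13.14 to 13.45. The set naming Cyp4a32 and Cyp4a10 had an ethanol difference of 0.72 ± 0.32 in wild-type livers (limma adjusted p = 0.356), and neither set was called in any contrast. Acot4 and Crat had a second probe set each. The second Acot4 set had group means of 6.94, 7.14, 7.31 and 7.31 in the same order of groups, with a null minus wild-type difference of 0.37 ± 0.12 on the control diet, close to the 0.46 of the first. For ethanol in null livers it gave 0.002 ± 0.12 and for the interaction -0.20 ± 0.17, both smaller in size than the estimates of the first set. The second Crat set had means of 7.07, 7.01, 7.05 and 6.91.

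Other genes of these pathways were read from a wider list of 104, of which 89 were measured and 84 tested. On the control diet 6 of the 84 were called higher in null livers and 1 lower, against 3.21% and 1.89% of all genes. Acad10, an acyl-CoA dehydrogenase, was higher by 1.38 ± 0.17 (limma adjusted p = 0.000541), and this call was kept in all 12 fits that left out 1 array. Fgf21, a fasting hormone of the liver and known PPARα target, was higher by 1.17 ± 0.26 (limma adjusted p = 0.0243), with 7.42, 7.43 and 7.81 in wild-type control and 8.19, 8.88 and 9.10 in null control livers. Bdh2 (0.76), the peroxisomal import gene Pex10 (0.48), the coactivator Ppargc1b (0.61) and Cyp4a12a (0.69) were the other higher genes, and Cyp4a12b (-1.29) was the lower. On the ethanol diet the shares over all genes were 0.456% higher and 1.33% lower. In the list 2 were called higher, Fgf21 (1.13) and Cyp4a12a (0.99), and 3 lower, Cyp4a12b (-2.42), the fatty acid transporter Slc27a1 (-0.85) and Hacl1 (-0.55), which acts in peroxisomal alpha-oxidation. Cyp4a12a and Cyp4a12b are near-identical paralogs, so their opposite estimates are uncertain. On the control diet the calls were kept in 11 of 12 fits without 1 array for Bdh2 (lost without the third wild-type control), 9 for Fgf21, 8 for Pex10, 7 for Ppargc1b and 3 each for Cyp4a12a and Cyp4a12b. Those of Fgf21, Pex10 and Ppargc1b were lost without the second null control array and without some others of the 12. On the ethanol diet the calls were kept in 12 fits for Cyp4a12b, 9 for Cyp4a12a, 8 for Slc27a1 and 3 each for Fgf21 and Hacl1. Slc27a1 (-0.74) and Hacl1 (-0.40) were not called without the third null ethanol array. Averaged over the diets, 7 of the 84 were called higher in null livers and 3 lower, against 3.01% and 3.98% of all genes. The higher were Fgf21 (1.15), Acad10 (0.92), Cyp4a12a (0.84), Acaca (0.51), Bdh2 (0.41), Acot6 (0.37) and Pex10 (0.29). The lower were Cyp4a12b (-1.85), Nudt7 (-0.81) and Hacl1 (-0.44). These calls were kept in 6 fits without 1 array for Acaca, 5 for Acot6, 4 for Pex10, 3 for Bdh2 and all 12 for the others. In both ethanol contrasts and in the interaction 0 of the 84 were called by limma, with 9 (ethanol in wild-type), 9 (ethanol in null) and 12 (interaction) at an unadjusted p under 0.05, against 14.5%, 12.2% and 15% of all genes.

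Among ketone genes of the wider list, Bdh2 was the one called. It had 7.52, 7.27 and 7.37 in wild-type control and 8.41, 7.92 and 8.12 in null control livers (0.76 ± 0.15, limma adjusted p = 0.0152). On the ethanol diet the Bdh2 difference was 0.05 ± 0.15. Acat1, the mitochondrial acetoacetyl-CoA thiolase, differed by -0.05 ± 0.12 on the control diet and -0.10 ± 0.12 on the ethanol diet. The ketone body and lactate transporter Slc16a1 differed by -0.26 ± 0.30 and -0.78 ± 0.30 and was not called on either diet. On the ethanol diet and without the third null ethanol array, the differences were -0.43 for Slc16a1, 0.053 for Acat1 and -0.11 for Bdh2.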

How the data were processed

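Total RNA of 12 mouse liver samples was hybridised to Affymetrix Mouse Gene 2.0 ST arrays. The deposited values are 1 intensity per probe set and array on the linear scale (1.816 to 20156), which the authors had put through RMA, per the submitters' processing notes; the sources used here give no version, background settings or annotation build. Here log2 was taken, 1 probe set per gene was kept (naming exactly 1 gene, highest mean over the arrays), and a gene was tested if above the 40th percentile of its array (5.61 to 5.71) on at least 3 arrays. All 12 arrays entered a single group-means model in limma 3.58.1 in R 4.3.3 (lmFit, contrasts.fit, eBayes, no trend, not robust; 8 residual and 4.95 prior degrees of freedom), with 7 contrasts and Benjamini-Hochberg adjustment within each. The steps were checked on simulated data.

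The members, roles and wider list were chosen with earlier results of these data known. Values per array are given for called members, for the 8 with the smallest p in each pairwise contrast and the interaction and for Ppara, Cpt1a, Ehhadh, Bdh1, Acot1, Acot2 and Cyp4a14; of the wider list, the called genes are named. Alternatives were other filters, normalisations, probe set rules, eBayes settings, array weights, a pseudocount of 16, only the 6 arrays compared, a replicate block and leaving out each array. Same-numbered arrays of different groups did not deviate together (18 pairs, correlation -0.15 to 0.19, 2 over 0.1), so the numbers were not taken to pair samples.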

Additional observations from a re-analysis of the deposited data

How the results depend on the processing

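The results were recomputed under 10 alternative settings and without each array in turn, except that the fit to only the 6 arrays compared could not be run for the interaction and the averages; where a count or direction moved, the cause was not tested unless the setting itself left out arrays or genes. With 3 arrays a group, the limit is the number of arrays: the median standard error was 0.12 for a pair of groups and 0.16 for the interaction on the log2 scale, so small differences between groups were not detectable. Dim probe sets such as that of Hadhb limit individual members.

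Without the third null ethanol array, 5 members changed sign in at least 1 contrast: Acot2, Cyp4a14, Vnn1, Etfdh and Hadhb. Vnn1 (-0.23 to 0.06), Etfdh (-0.09 to 0.10) and Hadhb (-0.03 to 0.16) did so for null against wild-type on the ethanol diet, and Etfdh also for the interaction (-0.04 to 0.15). For the other 2, over the fits without 1 array, ethanol in null livers ran from -0.44 to 0.020 for Acot2 and from -0.21 to 0.13 for Cyp4a14, and null against wild-type on the ethanol diet from -0.29 to 0.053 for Cyp4a14. A change of sign was counted only where an estimate, before or after, exceeded its standard error. Called members on the control diet numbered 4, and 0 to 5 without 1 array. Without 1 array the members called for ethanol in wild-type livers numbered 0 to 1, on the ethanol diet 0 to 1, and for genotype averaged 1 to 4.

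Over all genes, leaving out 1 array gave 0 to 810 calls for ethanol in wild-type livers, 0 to 3 for ethanol in null livers, 192 to 1304 on the control diet, 108 to 319 on the ethanol diet, 0 to 84 for the interaction, 0 to 293 for ethanol averaged and 621 to 1314 for genotype averaged. In the wider list the ranges were 0 to 1 for each of the ethanol contrasts, averaged included, 2 to 11 on the control diet, 1 to 5 on the ethanol diet and 6 to 10 for genotype averaged.

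Array weights gave more calls: 832 genes (3 members: Acot2, Acads and Acaa1a) for ethanol in wild-type livers, 9 for ethanol in null livers, 1631 (12 of the wider list) on the control diet, 829 (1 member, Pex11a, and 9 of the wider list) on the ethanol diet, 38 for the interaction, 133 (1 of the wider list) for ethanol averaged and 1863 (5 members) for genotype averaged. Ethanol in wild-type livers gave 24 calls with trend and robust eBayes, 23 with the filter at the 60th percentile, 43 with the pseudocount of 16 and 7 with no filter. Ethanol averaged gave 4 with trend and robust eBayes and 5 after quantile normalisation. The interaction gave 0 with the 60th percentile or the pseudocount and 1 with no filter.

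With no filter, ethanol in null livers gave 0 calls, the control diet 393 (2 members, 3 of the wider list), the ethanol diet 3 of the wider list, and genotype averaged 1 member and 6 of the wider list. With only the 6 arrays compared, 1 member was called for ethanol in wild-type livers (Acot1), 0 genes for ethanol in null livers, 226 genes (2 members, 4 of the wider list) on the control diet, and 1 member (Abcd2) and 3 of the wider list on the ethanol diet. On the control diet Acads and Acot2 kept their calls under all 10 settings. Abcd2 lost it with no filter, quantile normalisation, trend and robust eBayes, the replicate block or the 6 arrays alone (adjusted p up to 0.125), and Creb3l3 with no filter, the replicate block or the 6 arrays alone (up to 0.146).

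With the replicate number as a block, 2 members were called on the control diet, 0 genes for ethanol in null livers, 0 for ethanol averaged, and 3 of the wider list on the ethanol diet. The numbers have no stated meaning and did not pair the samples.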
